A study of Arabidopsis thaliana with 3 samples.

Results

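To follow transcripts that differed from wild type at a single step of flower maturation, the genes that were higher in ABAP1OE open flowers but close to wild type in flower buds and siliques were collected. ABAP1OE plants carry the *ABAP1* coding sequence under the CaMV 35S promoter, which is active in most plant tissues, in the Col-0 background, and wild-type (WT) plants are Col-0. On 2-colour arrays, with dyes exchanged between the genotypes, pools from each genotype were compared at stage 13 (flower buds), stage 14 (open flowers) and stages 15 to 16 (siliques). The labels give 3 biological replicates, which the authors combined into 1 log2 ratio of ABAP1OE over WT per probe and stage. Each stage is therefore 1 value per probe. No test, SD or p-value between genotypes could be computed, and no difference below has a replicate check. Plant age is not given for these pools, and neither is the number of transgenic lines in them.

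A gene was included when its log2 ratio in open flowers was at least 0.8 and below 6.6, where the deposited values reach their limit, and its ratios in flower buds and siliques both lay between -0.585 and 0.585, which is within 1.5-fold of WT. Only the transcript probes with exactly 1 gene symbol in the platform annotation were used, and probes of the same locus were averaged. The rule found 38 of 5441 genes with a probe of their own. All 3 ratios of a gene were used by the rule, so the genes were chosen by the very ratios described below, and those ratios support no statement about ABAP1. *ABAP1* itself was on no named probe, and the overexpression could not be checked in these values.

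ABAP1 is an armadillo BTB protein of plants. With transcription factor partners, it represses genes that license DNA replication and thereby limits cell division. At the stages studied here the flower passes from opening, with the anthers near the stigma, through full anthesis and pollination to withering of the petals and the start of silique growth. The pools hold petals, stamens, pistils, nectaries and pollen together, so a change in the amount of a tissue and a change in the RNA of a cell type cannot be told apart.

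In ABAP1OE open flowers the 38 genes had log2 ratios from 0.81 to 3.09, with a median of 1.05. The lower quartile was 0.90 and the upper quartile 1.19, against -0.16 and 0.15 over all 5441 genes. The rule itself set the lower edge of these ratios at 0.8, so their crowding just above it is no trait of the genes. The ratios of 16 genes were between 0.8 and 1.0, those of 19 were between 1.0 and 1.5, none lay between 1.5 and 2.0, and 3 were at or above 2.0. At 2-fold or more stood 22 of the 38 genes, where the share of all genes was 1.29%.

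**Figure D1:**
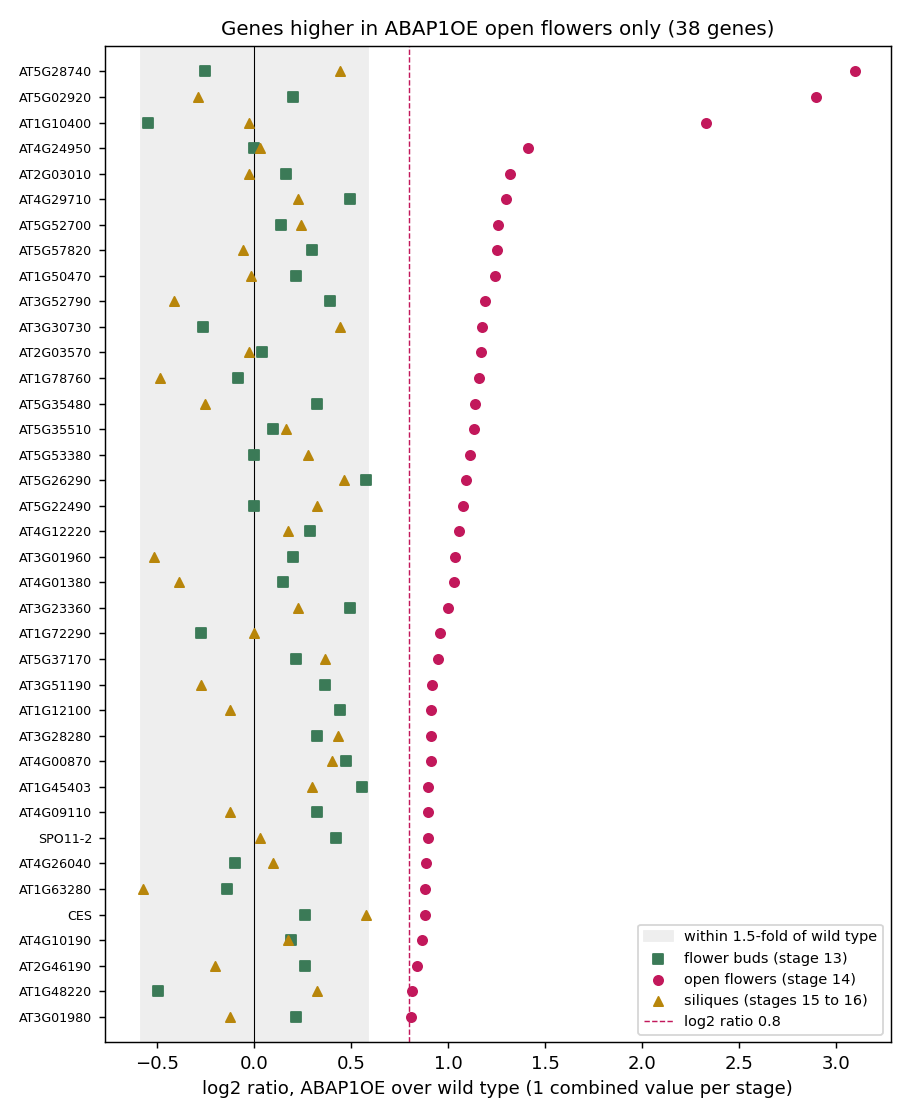
Log2 ratio of ABAP1OE over wild type (x axis) of each of the 38 genes (rows, ordered by the open flower ratio) in flower buds (squares), open flowers (circles) and siliques (triangles), 1 combined value per stage without error bars; the grey band is 1.5-fold either way. A gap separates the 3 highest genes, at 2.33 to 3.09, from the other 35, at 0.81 to 1.41.

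Of the 38 genes, 36 have no symbol other than their locus name in the TAIR10.1 gene table, and no role is given for them here. The share among the 5441 genes was 90.2%. The other 2 are *CES* and *SPO11-2*.

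*CES* (AT1G25330), also called *CESTA* or *HAF*, encodes a basic helix-loop-helix transcription factor. It promotes brassinosteroid responses and, with close relatives, the formation of the transmitting tract through which pollen tubes grow. In ABAP1OE its log2 ratio was 0.26 at stage 13, 0.88 at stage 14 and 0.58 in siliques. *CES* was thus higher at every stage, 1.84-fold in open flowers, and its silique ratio lay just inside the flat range. It counts as higher in open flowers alone only because of where that range ends.

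*SPO11-2* (AT1G63990) encodes a relative of archaeal topoisomerase VI that is needed for the DNA double-strand breaks of meiotic recombination. Meiosis is over in anthers and ovules well before the flower opens. The ratio of *SPO11-2* was 0.42 at stage 13, 0.90 at stage 14 and 0.03 in siliques. The open flower value is 1.86-fold. It was carried by 2 probes with identical values at every stage, which therefore count as 1 measurement. Such identical values were common, as 227 of 283 genes with several probes of their own had them.

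The highest ratio belonged to AT5G28740, at 3.09 in open flowers, -0.25 in flower buds and 0.44 in siliques. This average rests on probes that differ. In open flowers one was at the deposited limit of 6.64 and the other at -0.45, below WT. The probe at the limit read -0.36 in buds and 0.75 in siliques, and the other was at -0.15 and 0.14. Only the probe at the limit was far from WT, and without it AT5G28740 is not higher in open flowers. For comparison, genes with several probes of their own that differ had a typical SD between probes of 0.14 in open flowers (square root of the median variance over 52 genes).

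AT5G02920 was at 2.90 in open flowers, 7.44-fold, with 0.20 in flower buds and -0.29 in siliques. AT1G10400 was at 2.33, 5.03-fold, with -0.55 in flower buds and -0.03 in siliques. AT1G10400 was the gene with the lowest flower bud ratio of the 38. Each rests on 1 probe. These 3 genes had the highest open flower ratios of the 5441 genes. They were also the only ones of the 38 at or beyond 4.64-fold, or 2.21 on the log2 scale, the level that 28 of the 36 empty spots of the array reached on the opposite side of WT in open flowers. The one empty spot at 0.8 or more in open flowers read 2.76 there, with -0.74 in buds and 0.97 in siliques. The part of weak signal in these 3 ratios was not tested, since intensities were not used here.

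Below the gap, AT4G24950 was the clearest case of a difference at stage 14 alone, at 1.41 in open flowers with 0.00 in flower buds and 0.03 in siliques. AT2G03570 had the same shape, at 1.17 with 0.04 and -0.03 in buds and siliques. Together with AT4G26040, at 0.89 with -0.10 and 0.10, these were the 3 genes within 0.1 of WT at both other stages. Within 0.3 of WT at both stages were 15 genes. Among these, AT2G03010 was at 1.32 in open flowers, AT5G52700 at 1.26, AT5G57820 at 1.25 and AT1G50470 at 1.24. Their flower bud ratios were 0.16, 0.14, 0.30 and 0.21, and their silique ratios -0.03, 0.24, -0.06 and -0.01, in that order.

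Other genes at 2-fold or more in open flowers were more than 0.3 above or below WT at another stage. AT5G26290 was at 1.09 in open flowers, with 0.58 in flower buds and 0.46 in siliques, and AT4G29710 at 1.30, with 0.50 and 0.23. AT3G23360 was at 1.00, with 0.50 in buds and 0.23 in siliques. These genes were above WT at every stage. The ratios of AT3G30730 ran through -0.26, 1.18 and 0.44 from flower buds to siliques, and those of AT3G52790 through 0.39, 1.19 and -0.41. AT3G01960, at 1.04 in open flowers and 0.20 in buds, was at -0.52 in siliques, and AT4G01380, at 1.03 and 0.15, was at -0.39.

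The remaining genes at 2-fold or more were AT1G78760 (1.16), AT5G35480 (1.14), AT5G35510 (1.13), AT5G53380 (1.11), AT5G22490 (1.08) and AT4G12220 (1.06). AT5G35510 was matched to the gene table by its locus name only, whereas the other 37 of the 38 genes were matched by identifier. AT5G53380 and AT5G22490 were both at 0.00 in flower buds and at 0.28 and 0.32 in siliques. The platform annotation links this pair, since each is listed with AT5G12420 and AT5G16350 on a probe for several genes.

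Under 2-fold in open flowers, AT1G72290 was the highest at 0.96, with -0.28 in flower buds and 0.00 in siliques. It was followed by AT5G37170 (0.95), AT3G51190 (0.92), and AT1G12100, AT3G28280 and AT4G00870 (0.91 each). AT4G00870, at 0.48 in buds and 0.40 in siliques, and AT1G45403, at 0.90 in open flowers, 0.56 in buds and 0.30 in siliques, differed little between stages. The difference between the open flower ratio and the higher of the other ratios was under 0.5 for 7 genes and 1.0 or more for 10 genes. Its smallest value was 0.30, for *CES*, its median 0.79 and its largest 2.69. The typical SD between differing probes of a gene was 0.16 in flower buds and 0.26 in siliques. That is scatter between probes within a stage, and it does not measure the error of a difference between stages. No gap, small or large, has a replicate check.

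At the lower end stood AT4G09110 (0.90), AT1G63280 (0.88), AT4G10190 (0.86), AT2G46190 (0.84), AT1G48220 (0.82) and AT3G01980 (0.81). Just below the size of 0.8 and within 1.5-fold at both other stages were AT1G22290 at 0.80, AT1G68470 and AT1G73120 at 0.79, AT3G42570 at 0.78 and AT1G63070 at 0.77. The rule thus divided a continuous run of ratios. The same was so for the flat range. Inside it were AT5G26290 at 0.58 in flower buds and AT1G63280 at -0.58 in siliques, and just outside it AT4G25330 at 0.63 in flower buds and AT1G53860 at -0.61 in siliques, with open flower ratios of 1.00 and 0.81.

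In flower buds the ratios of the 38 genes ran from -0.55 to 0.58 with a median of 0.21, and in siliques from -0.58 to 0.58 with a median of 0.03. Above WT in flower buds were 27 of the 38 genes, or 71.1%. The share was 52.9% among all genes that were within 1.5-fold at both of these stages. In siliques 20 of the 38 were above WT, or 52.6%, beside 46.8%. At both stages 13 genes were above WT, at both 3 were below, 14 were above in buds and below in siliques, and 4 were the other way round, while 4 stood at exactly 0 at one of the stages. Among the 4405 genes within 1.5-fold at both stages these shares were 23.6% above WT at both, 21.0% below at both, 28.3% above in buds and below in siliques, and 21.7% the other way round. The flower bud ratio was the higher of the pair in 24 of the 38 genes (63.2%), beside 51.7% of the 4405. No test of these differences was made. Over all 5441 genes, Pearson's r across genes was 0.38 between flower buds and open flowers and 0.33 between open flowers and siliques, as a description of arrays that share the platform and the labelling.

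**Figure D2:**
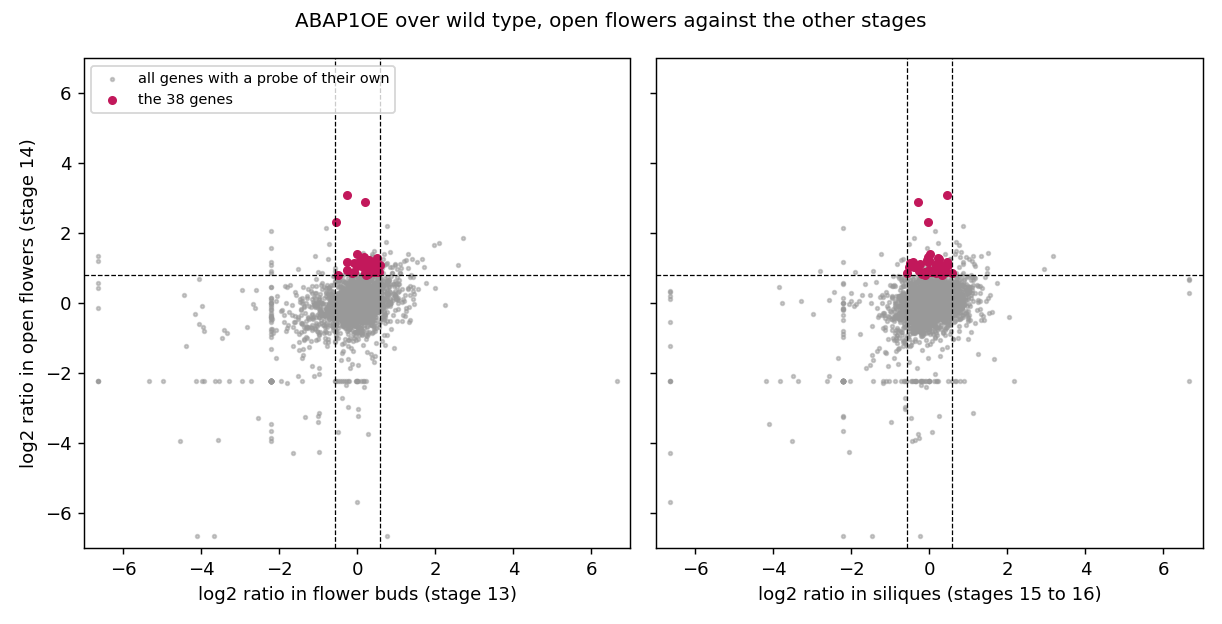
Log2 ratio of ABAP1OE over wild type in open flowers (y axis) against that in flower buds (left, x axis) and siliques (right, x axis) for the 38 genes (red) and the 5441 genes with an own probe (grey); dashed lines mark the sizes of the rule. The 38 genes sit above the horizontal line at 0.8 and between the vertical lines at -0.585 and 0.585, directly above the bulk of the genes.

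Of the 5441 genes, 107 (1.97%) were at 0.8 or more in open flowers, and 81% were within 1.5-fold of WT in both flower buds and siliques. The 38 genes were 35.5% of the 107 (95% exact binomial interval 26.5% to 45.4%, which covers the counting of genes only). Of the other genes, 22 were also higher than 1.5-fold in buds, 17 in siliques and 9 at both stages. Another 16 were lower than WT in buds, siliques or both, and 5 were higher at one and lower at the other. Most genes with higher transcript levels in ABAP1OE open flowers were thus beyond 1.5-fold at another stage too.

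**Figure D3:**
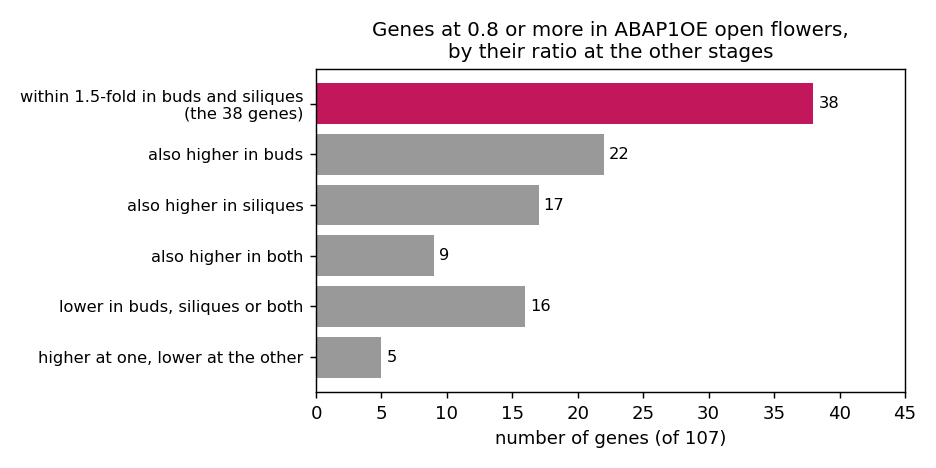
Number of genes (x axis) among the 107 with a log2 ratio of 0.8 or more in ABAP1OE open flowers, by their ratio in flower buds and siliques (rows, 1.5-fold either way as the limit). The 38 genes form the longest bar, followed by 22 genes also higher in flower buds.

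The same sizes applied to the other stages found 52 genes (0.956%) higher in flower buds only and 78 (1.43%) higher in siliques only, beside the 38 (0.698%) in open flowers. The median ratio at the stage of the rule was 1.05 for the open flower genes, 1.02 for the flower bud genes and 0.94 for the silique genes, and 57.9%, 53.8% and 37.2% of them were 2-fold or more. In the opposite direction 44 genes (0.809%) were lower in open flowers only. Of these 44, 14 were at or beyond the 4.64-fold level of the empty spots, against 3 of the 38 higher genes. On the lower side at this level also lay 28 of the 36 empty spots, and the part of weak signal was not tested. No test of these differences was made.

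The rule left out probes that list several genes. They offer values that did not choose the 38 genes, although a probe of this kind cannot be assigned to a single gene. Of the 38 genes, 18 were listed on 19 such probes and 20 on none. On the shared probes the open flower ratios of the 18 genes had a median of -0.02, where the median on their own probes was 1.07. The shared value was the lower of the pair for all 18 genes. This was largely set by the rule, which chose own values of 0.8 or more. On the shared probes 8 of the genes were above 0, 10 were below, and 1 was at 0.8 or more. Of all 1958 genes with both kinds of probe, 1.89% had a shared value of 0.8 or more. The median shared value of these 1958 genes was 0.

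AT1G50470 was the only gene at 0.8 or more on both kinds of probe, with 1.24 on its own probe and 0.82 on the shared one. Both probes were highest in open flowers. The shared probe read 0.41 in buds and -0.58 in siliques, where the own probe read 0.21 and -0.01. AT1G10400 followed with 2.33 and 0.46, then AT1G45403 with 0.90 and 0.39, AT4G09110 with 0.90 and 0.36, and AT4G12220 with 1.06 and 0.33. These 5 genes were the ones at 0.3 or more on the shared probe. For AT5G02920, at 2.90 on its own probe, the shared probe was at -0.04. AT3G28280 was at 0.91 and -0.55, AT1G48220 at 0.82 and -0.40, and AT3G01980 at 0.81 and -6.64, the deposited limit in the opposite direction. The shared probe of AT3G01980 read -2.21 in buds and -0.79 in siliques.

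**Figure D4:**
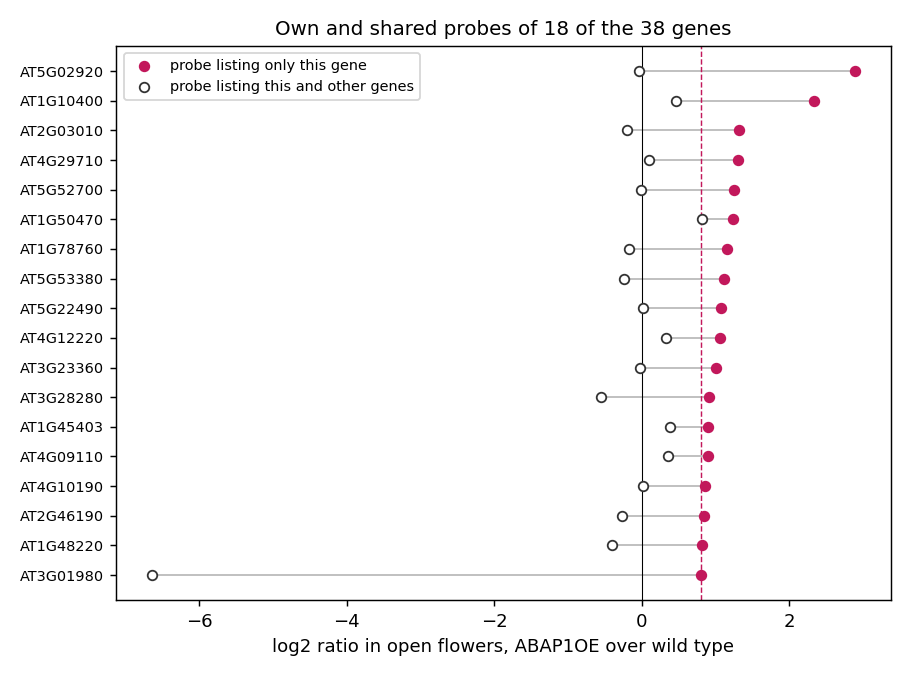
Log2 ratio of ABAP1OE over wild type in open flowers (x axis) for the 18 genes (rows) that are also listed on a probe for several genes, on their own probe (filled circles) and on the shared probe (open circles), with a dashed line at 0.8. Each open circle lies left of its filled circle, AT1G50470 alone keeps both at or beyond 0.8, and AT3G01980 has its shared probe at -6.64.

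Low values on shared probes were not particular to these genes. Across the 1958 genes with both kinds of probe, Pearson's r between the own and the shared open flower ratio was 0.05 and Spearman's rho 0.08, as a description across genes on the same arrays. Among the 26 other genes at 0.8 or more on their own probe that were also on shared probes, 1 had a shared value of 0.8 or more, and the median shared value was 0.11. How far the genes listed together cross-hybridise was not tested. With the shared probes averaged in, 3 of the 18 genes stayed at 0.8 or more, namely AT5G02920 (1.43), AT1G10400 (1.40) and AT1G50470 (1.03).

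On these shared probes 18 of the 38 genes were listed with 40 other genes, of which 7 had a probe of their own. None of the 7 was at 0.8 or more in open flowers, a size that 1.97% of all genes reached. Their ratios ran from -2.22 to 0.33 with a median of -0.10. AT5G52710, listed with AT5G52700, was at 0.18, and AT1G78740 and AT1G16940, listed with AT1G78760, were at -0.16 and -0.25. The lowest was AT2G34740, listed with AT3G23360.

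Of the 38 genes, 10 lay on chromosome 1 (26.3%, beside 24.9% of all genes), 3 on chromosome 2 (7.89%, beside 14.9%), 7 on chromosome 3 (18.4%, beside 21.6%), 8 on chromosome 4 (21.1%, beside 14.6%) and 10 on chromosome 5 (26.3%, beside 23.9%). The shares were not tested. Pairs within 10 protein-coding genes of each other were AT5G35480 and AT5G35510, with 1 gene between them by the locus name of AT5G35510 and open flower ratios of 1.14 and 1.13, and AT3G01960 and AT3G01980, with 3 genes between them and ratios of 1.04 and 0.81. For 15 of the genes a directly adjacent gene had a probe of its own, and none of these 15 neighbours was at 0.8 or more in open flowers, beside the 1.97% of all genes. Their ratios ran from -2.21 to 0.49 with a median of -0.03. The neighbour of *SPO11-2*, AT1G63980, was at -0.03, and AT3G28270, next to AT3G28280, was the highest.

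Probes of every kind met the same rule at similar rates. Counted one by one, 41 of 5781 probes with 1 symbol met it (0.709%, 95% exact binomial interval 0.509% to 0.961%), as did 50 of 7493 with several symbols (0.667%, 0.496% to 0.879%) and 106 of 12273 with no symbol (0.864%, 0.708% to 1.04%). The intervals cover the counting of probes only. Of the 36 empty spots and the 12 other control spots with values, none met it. The upper bounds of their intervals were 9.74% and 26.5%, so these spots are too few to compare with the other kinds. Of the 197 transcript probes that met the rule, 106 had no symbol in the annotation used here, beside 12273 of all 25547.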

How the data were processed

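The authors hybridised amplified, dye-coupled antisense RNA of ABAP1OE and WT pools to spotted long-oligonucleotide arrays (Operon Arabidopsis oligo set) and deposited log2 ratios, 1 column per stage. How the background was corrected, the arrays normalized and the replicates averaged is not given in the sources used here. The ratios were log2 values of folds with 2 decimals, with a limit of 100-fold. Over transcript probes every column had a median of 0. With no intensities, the depth of signal behind a ratio is unknown. The direction of the flower bud column was checked by sign on 46 genes of the study's signed list of changed genes, all 46 of which matched. The other columns were taken to run the same way by their labels.

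Of 26545 probes, 71 were control spots, the annotation gave 1 gene symbol for 5784, several for 7497 and none for 13264. Of the probes with 1 symbol, 5756 were matched to the TAIR10.1 RefSeq gene table by identifier, 23 by locus name and 5 neither way. Probes of a locus were averaged. Genes were counted and set beside all measured genes, and the counting was tested on simulated data. Any of the 38 genes could be named; given in more detail were those with the highest ratios, with several probes, nearest the thresholds or on shared probes. Members and lists were chosen with earlier results of these data known. Other probe choices, sizes, flat ranges, scaling and centring were tried. A search of promoters and a grouping by protein product were planned and not run, since the tables used here hold neither. Computation used pandas 2.3.3, numpy 2.4.6 and scipy 1.17.1 under Python 3.11.15, and figures matplotlib 3.10.9.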

Additional observations from a re-analysis of the deposited data

Results flagged for a closer look

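Of the 38 genes, 3 were above WT in open flowers and below it at both other stages: AT1G10400, at 2.33 in open flowers, AT1G78760, at 1.16, and AT1G63280, at 0.88. These differences between stages were not tested, as each stage has 1 combined value. In flower buds the ratios were -0.55, -0.08 and -0.14, and in siliques -0.03, -0.49 and -0.58, in that order.

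Among the probes that the rule did not use, those listing AT1G50470, at 0.82 in open flowers, and AT3G01980, at -6.64, were at least 0.8 from WT, one in each direction.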

How the results depend on the processing

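No paired analysis was possible because the replicates of a stage were deposited as 1 combined value, and for the same reason no replicate could be left out. The number of genes higher in open flowers only was 65 with probes of several genes kept, 23 of them among the 38, and 39 of the other 42 had only shared probes. It was 22 at 2-fold, 111 at 1.5-fold and 15 with a flat range of 0.3, which is 14.0% of the 107. The counts at other sizes and at the narrower flat range follow from the settings' own construction. The loss of genes with shared probes kept was also largely set by the rule, which chose own values of 0.8 or more. Only 3 of the 18 genes on shared probes stayed at 0.8 or more. The other 9 settings gave between 35 and 53 genes. Counting every own probe by itself and leaving out the probes with names that begin with GP were chosen after seeing the data. With probes of several genes kept, the median of the senescence list was 0.62 over 3 genes and that of the pollen list -0.45 over 7 genes. Both lists are described below. AT5G28740 was at -0.45 without values at or beyond 4.64-fold, and AT3G01980 at -2.92 with shared probes averaged in. Of 112 recomputed ratios of the 38 genes, 92 equalled the value given, since the setting could not move them, 18 moved and 2 changed sign.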

Other observations

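Genes of floral tissues and of other processes were looked for in 8 lists, none of which held any of the 38 genes. Few listed genes had a probe of their own, and 0.698% of all genes met the rule. This absence therefore says nothing about the 38 genes. Of the nectary list, *SWEET9*, the sucrose exporter of nectaries, was at 1.36 in open flowers and *JMT*, which methylates jasmonic acid, at 0.01 (median 0.69). *SWEET9* was beyond 1.5-fold at the other stages too, at -1.08 in flower buds and 1.11 in siliques. Of the senescence list, the sugar transporter gene *SAG29* was at 0.62 and the regulator *WRKY6* at -0.03 (median 0.30). The transcription factor gene *TCP15* was at 0.24, the pollen actin-bundling gene *PLIM2b* at -0.29 and *LEA4-5*, of the late embryogenesis abundant proteins, at -0.19, each as the only gene of its list with a probe of its own. The lists of jasmonate-dependent petal and stamen growth, photosynthesis and the pre-replication complex had 0 such genes.

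Single probes of 2 further genes met the rule, although the averages of these genes did not. AT2G06645 had 1.09 on one of its 5 probes in open flowers and 0.04 to 0.56 on the others, and averaged 0.45. AT1G06260 had 0.90 on a pair of probes with identical values and 0.00 on the third, and averaged 0.60.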
